A study of Homo sapiens with 4 samples.

Results

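The YAP pathway in A549 cells was followed through 10 genes of 57905 in the deposited count table. The genes were chosen by symbol, and the choice was made with earlier results of these libraries known, so that their values are a description. They comprise the angiomotins AMOT, AMOTL1 and AMOTL2, the coactivators YAP1 and WWTR1 (the gene of TAZ), the transcription factor TEAD1, the kinase LATS2, and the target genes CTGF, CYR61 and ANKRD1. All 10 symbols were found, each on 1 entry of the table, and CTGF and CYR61 stood under these older names of CCN2 and CCN1.

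Stable lines of A549, an established cell line of human lung adenocarcinoma, were sequenced, with 1 library for each of 4 conditions. The scramble control (sc) and the shRNA against DCBLD2 (shDCBLD2) were carried by a lentiviral vector with puromycin selection. The other 2 lines carried a second lentiviral vector with blasticidin selection, either empty (vector control) or labelled as overexpressing DCBLD2. All 4 lines thus carry a lentiviral insert, and which hairpin the shDCBLD2 library carries was not given in the sources used here. DCBLD2 is a transmembrane receptor-like protein that the study examined in migration and metastasis. DCBLD2 itself stood at 504 CPM in sc, 197 in shDCBLD2, 434 in the vector control and 242 in the library with the overexpression label, where CPM is the count scaled to a common library size by the trimmed mean of M values (TMM). The log2 ratio of the last pair was -0.84 (95% interval -0.90 to -0.79), in the direction opposite to the label, so this library is called the DCBLD2-labelled library throughout. Library totals lay between 16601633 and 21537283 counts on genes. All 10 markers listed for A549-like cells, among them KRT7, KRT8 and AKR1B10, were above 3 counts in every library.

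The Hippo pathway is a kinase cascade in which MST kinases activate LATS kinases, and LATS kinases phosphorylate YAP and TAZ so that they are held in the cytoplasm or degraded. Unphosphorylated YAP and TAZ enter the nucleus, bind TEAD factors and switch on genes such as CTGF, CYR61 and ANKRD1. Angiomotins are junctional scaffold proteins that bind YAP and TAZ directly, and in lung adenocarcinoma cells the pathway is known for its link to cell contact, spreading and growth. Several of its inhibitors, LATS2 and AMOTL2 among them, are also YAP targets. Activity of the pathway is set largely by phosphorylation, which transcript counts do not measure.

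The promoters show where the TEAD motif lies in these genes. The 300-base windows around the annotated RefSeq starts (GRCh38.p14, 250 bases before to 50 after) were searched on both strands for the core TEAD motif GGAATG or CATTCC and for the AP-1 motif TGANTCA, which do not overlap each other here. Windows were matched for 8 of the 10 genes, with 10 starts in all; CYR61 and TEAD1 were not matched. The TEAD motif was present at 5 starts of 5 genes, and it is present in 14% of the 35116 windows in the RefSeq table. The CTGF window held 3 matches, at 169, 104 and 95 bases before the start, a number reached by 0.128% of windows. The ANKRD1 window held 2 matches, 220 and 128 bases before the start, where 1.37% of windows hold 2 or more, and was the only one of these 10 windows with an AP-1 match (195 bases before the start; 7.71% of windows hold one). A single match lay 162 bases before the start of YAP1, 69 bases before the second start of AMOTL2, and 9 bases after the start of LATS2. No match to these letters was found in the windows of AMOT, AMOTL1 and WWTR1 or at the other start of AMOTL2. The 250 bases before the start are printed for the 2 target genes with repeated motifs, for AMOTL2 and, as the window without a match, for AMOT, whose count differed most between libraries. All 4 lie on the minus strand and are written 5′ to 3′ in the direction of transcription, with motif matches in capitals.
CTGF (chr6:131951373-131951622): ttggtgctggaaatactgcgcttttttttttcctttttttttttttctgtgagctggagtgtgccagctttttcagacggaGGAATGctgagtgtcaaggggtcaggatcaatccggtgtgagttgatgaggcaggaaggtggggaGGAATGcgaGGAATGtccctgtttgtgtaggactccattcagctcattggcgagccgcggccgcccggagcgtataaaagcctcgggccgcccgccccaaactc
ANKRD1 (chr10:90921088-90921337): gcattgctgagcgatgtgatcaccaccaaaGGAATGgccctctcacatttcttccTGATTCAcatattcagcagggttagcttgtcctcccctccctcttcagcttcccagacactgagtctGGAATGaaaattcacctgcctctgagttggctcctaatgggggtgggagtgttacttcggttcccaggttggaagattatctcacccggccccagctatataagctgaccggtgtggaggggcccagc
AMOTL2, second start (chr3:134374448-134374697): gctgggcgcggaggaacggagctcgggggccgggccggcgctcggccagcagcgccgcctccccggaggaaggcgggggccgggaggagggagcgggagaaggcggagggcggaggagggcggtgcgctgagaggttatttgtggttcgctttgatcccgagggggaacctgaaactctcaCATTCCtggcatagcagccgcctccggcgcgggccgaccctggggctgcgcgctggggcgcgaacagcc
AMOT (chrX:112840832-112841081): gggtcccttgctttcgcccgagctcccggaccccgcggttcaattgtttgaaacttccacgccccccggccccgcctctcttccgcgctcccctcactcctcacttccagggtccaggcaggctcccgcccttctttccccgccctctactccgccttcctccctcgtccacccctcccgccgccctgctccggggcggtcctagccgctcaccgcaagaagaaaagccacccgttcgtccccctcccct
A match is a description of the sequence, and binding of TEAD factors was not measured in these libraries. The AMOT window held 23 CpG dinucleotides, that of AMOTL1 33, that of CTGF 15 and that of ANKRD1 5, beside a median of 14 (quartiles 4 and 28) over all windows.

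Ranges in parentheses after a value are exact Clopper-Pearson 95% intervals, which cover counting error only, and since no condition has a replicate, no p-value is given. A gene was counted as different where the ratio reached 2-fold and the interval did not include equal levels. Between the DCBLD2-labelled library and the vector control, 2 of the 10 genes were higher by this rule (AMOT and AMOTL1) and 0 were lower, beside 6.42% of the 13966 genes tested that were higher and 5.35% that were lower. AMOT passed the expression filter only through the library where it was high, and without it 1 of 9 genes was higher. Between shDCBLD2 and sc, 0 were higher and 1 (AMOTL1) was lower, beside 1.16% and 5.62% of all genes. Between the vector control and sc, which are separately made control lines with different vectors and drugs, 0 of the 10 genes differed, beside 2.22% of genes higher and 1.89% lower. At a threshold of 1.5-fold the 3 comparisons gave 2 higher and 3 lower genes of the 10 (beside 12.8% and 17.8% of all genes), 1 and 2 (4.93% and 11.6%), and 0 and 1 (7.07% and 6.67%). The first and the second of these comparisons use different controls, and the third uses both controls. In bulk libraries, fewer cells of a type and less RNA per cell cannot be told apart.

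**Figure D1:**
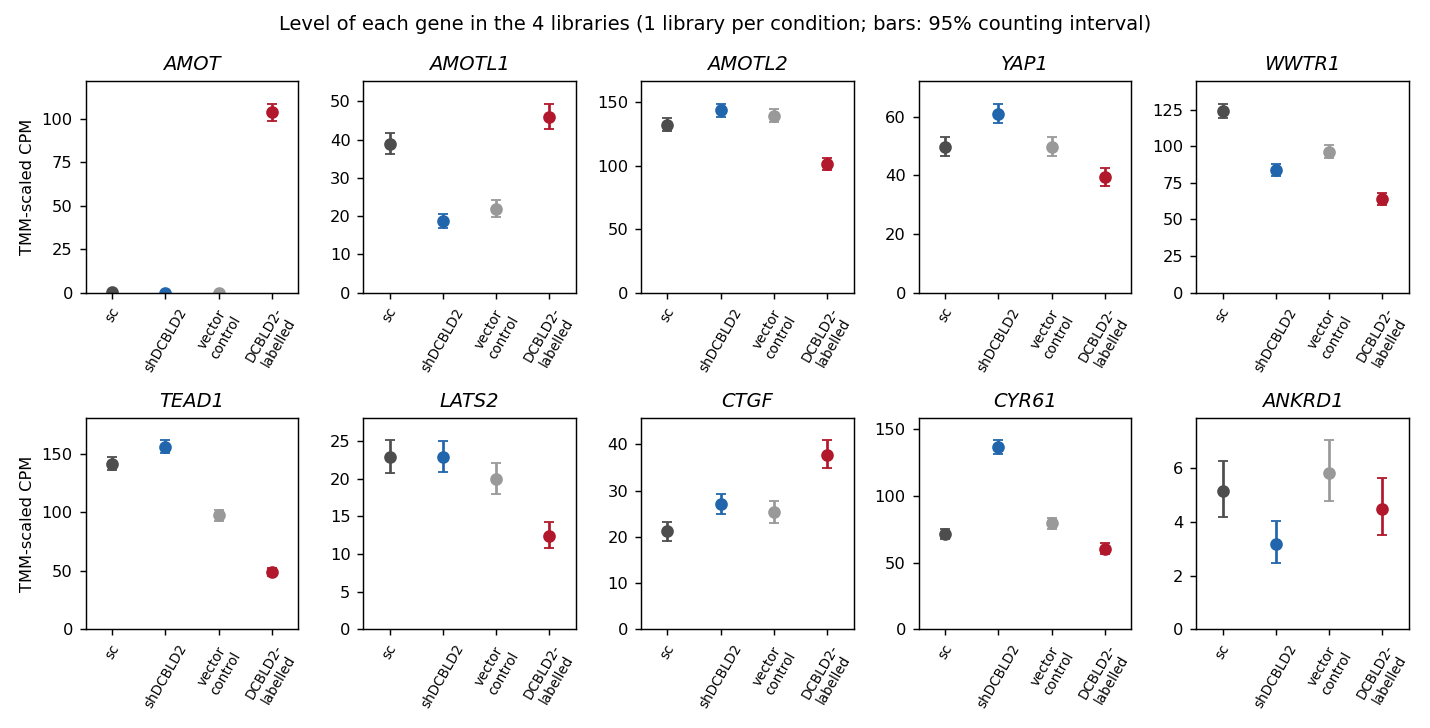
TMM-scaled CPM of each of the 10 genes (vertical axes, linear, each from 0) in the 4 libraries, 1 point per library with its exact 95% counting interval. AMOT is near 0 in 3 libraries and at 104 CPM in the DCBLD2-labelled library, where TEAD1, WWTR1, LATS2, AMOTL2, YAP1 and CYR61 have their lowest points.

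Of the angiomotins, AMOT differed most between the libraries, and the 3 genes did not share a direction. AMOT (ENSG00000126016, chromosome X from 112017731 to 112084043 on the minus strand by the coordinates in the table, which names no genome build) had 3 counts in sc, 2 in shDCBLD2, 0 in the vector control and 1709 in the DCBLD2-labelled library. It was therefore at or under the floor of 3 counts in the other 3 libraries and at 104 CPM (98.7 to 109) in this library. Against the floor of 3 counts per library, AMOT was at least 634-fold higher than in the vector control, a log2 ratio of 9.31, and the counting interval of the ratio started at 9.01. No fold can be given between the other libraries. AMOT passed the expression filter through this library alone.

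AMOT was not the only gene seen in a single library. In the DCBLD2-labelled library, 66 genes had at least 50 counts and at most 3 in each of the other libraries, of which 12 lie on chromosome X, and AMOT had the 2nd highest count among them. The same search found 0 such genes in each of the other libraries. The share of chromosome X among all genes was not determined. By the distance of centred log2 CPM over the 4 libraries, the closest in pattern to AMOT was a non-coding gene whose values are left out here, and the 2nd and 3rd closest were MATK, an inhibitory tyrosine kinase of Src-family kinases, with 1, 1, 0 and 591 counts in sc, shDCBLD2, vector control and the DCBLD2-labelled library (distance 1.13), and the antioxidant enzyme PRDX2, with 7, 6, 6 and 2127 counts (distance 1.25). Marker lists of other cell types also stood higher in this library. The summed level of 10 fibroblast-like markers was 86.3 CPM there and between 39.2 and 60.5 CPM in the other libraries, with 8 of the markers above 3 counts against 5 or 6. COL1A1 made up most of this sum, at 63.1 CPM there and 54.0, 32.7 and 35.5 CPM in shDCBLD2, sc and the vector control. Of the 5 that passed the filter, COL1A2, COL3A1 and COL6A3 were counted as higher than in the vector control and 0 as lower. Of all genes tested, 6.42% were higher and 5.35% lower by this rule. These 3 markers had 67 against 0, 68 against 6 and 77 against 20 counts. COL1A2 and COL3A1, under 1 CPM in the other libraries, passed the filter only through the library where they were high. THY1 lay the other way, at 114 against 160 counts, and PDGFRB had 10 against 8. POSTN, DCN and LUM, at 0 in the other libraries, had 42, 4 and 1 counts there, the last under the floor, and FAP was at 0 in every library. The summed level of 12 markers listed for HEK293-like cells, the type of cell in which the lentivirus was made, was 212 CPM there and between 131 and 143 CPM elsewhere. Above 3 counts were 9 of these markers there and 8 or 9 elsewhere. Of the 9 that passed the filter, LIN28B, NEFL and NEFM were counted as higher than in the vector control and INA as lower, with 227 against 550 counts. NEFM had 221 counts there against 1, 4 and 0 in sc, shDCBLD2 and vector control. It passed the filter through this library alone. PCSK1N took the most of the difference between the sums, at 114 against 58.4 CPM, and MEIS2 and TSPYL5 were at 6.18 against 8.39 and 19.3 against 22.6 CPM. STMN2 and SYT4 were at 0 in all 4 libraries. The summed A549-like markers, at 27038 CPM, lay within the range of the others (20736 to 28868 CPM), but single markers differed. Of the 10, EPCAM, KRT19 and GPX2 were counted as higher than in the vector control and 0 as lower. Between shDCBLD2 and sc, EPCAM, KRT19, CDH1 and GPX2 were counted as lower and 0 as higher, beside 5.62% and 1.16% of all genes. GPX2 also differed between the controls, at 340 CPM in sc and 99.3 CPM in the vector control (log2 ratio -1.77, -1.85 to -1.70). Its level was 101 CPM in shDCBLD2 and 387 CPM in the DCBLD2-labelled library. The part of these cell types in the AMOT count was not tested.

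AMOTL1, the second angiomotin, split the libraries differently. The gene (ENSG00000166025, chromosome 11 from 94439597 to 94609918 on the plus strand) had 762 counts in sc, 402 in shDCBLD2, 401 in the vector control and 759 in the DCBLD2-labelled library, or 39.0, 18.6, 21.8 and 46.0 CPM. The log2 ratio was 1.07 (0.90 to 1.25) between the DCBLD2-labelled library and the vector control and -1.06 (-1.24 to -0.89) between shDCBLD2 and sc. These opposite differences rest on controls that themselves differed, with a log2 ratio of -0.83 (-1.01 to -0.66) between the vector control and sc, or 1.78-fold. With the controls exchanged, the log2 ratio was 0.24 (0.09 to 0.39) for the DCBLD2-labelled library against sc and -0.23 (-0.43 to -0.03) for shDCBLD2 against the vector control, and AMOTL1 was then counted as different in neither. The levels of sc and the DCBLD2-labelled library thus lay on the high side and those of shDCBLD2 and vector control on the low side, where the intervals of the latter pair overlapped. The closest genes in pattern to AMOTL1 were RP11-288H12.4, the small GTPase RAB20 and the actin-binding gene SYNPO2, at distances of 0.0903, 0.0907 and 0.0920.

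AMOTL2, the most abundant angiomotin (ENSG00000114019, chromosome 3 from 134074716 to 134094321 on the minus strand), had 2584 counts in sc, 3098 in shDCBLD2, 2559 in the vector control and 1672 in the DCBLD2-labelled library. Its level was 132, 144 and 139 CPM in the former 3 and 101 CPM in the last, with a log2 ratio of -0.46 (-0.55 to -0.37) to the vector control. The DCBLD2-labelled library was the lowest. Of the others, the vector control overlapped both sc and shDCBLD2 in its interval, while the log2 ratio between shDCBLD2 and sc was 0.12 (0.04 to 0.20).

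Levels of different genes were compared by deposited FPKM, which takes exonic length into account. AMOTL2 made up 85.0% of the angiomotin FPKM in sc, 92.8% in shDCBLD2, 91.5% in the vector control and 50.2% in the DCBLD2-labelled library. AMOT supplied 36.1% in that library (12.11 FPKM) and at most 0.0752% in the others. The sum of the 3 angiomotins was 33.50 FPKM there and between 24.98 and 26.59 FPKM in the other libraries, so that the make-up of the family differed more than its total. AMOTL2 exceeded AMOTL1 by 12.9 times in shDCBLD2 and by 3.69 times in the DCBLD2-labelled library.

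The coactivators were both lowest in the DCBLD2-labelled library. YAP1, the coactivator restrained by LATS kinases (ENSG00000137693, chromosome 11 from 101981192 to 102104154 on the plus strand), had 973 counts in sc, 1318 in shDCBLD2, 913 in the vector control and 651 in the DCBLD2-labelled library, or 49.7, 61.1, 49.7 and 39.4 CPM. The 2 controls had the same level within counting error (log2 ratio 0.00, -0.13 to 0.13). The log2 ratio of YAP1 was -0.33 (-0.48 to -0.19) between the DCBLD2-labelled library and the vector control and 0.30 (0.18 to 0.42) between shDCBLD2 and sc, each under 2-fold.

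WWTR1, which encodes TAZ (ENSG00000018408, chromosome 3 from 149235022 to 149454501 on the minus strand), had 2427 counts in sc, 1805 in shDCBLD2, 1765 in the vector control and 1055 in the DCBLD2-labelled library, or 124, 83.7, 96.2 and 63.9 CPM. It was lower in shDCBLD2 than in sc (log2 ratio -0.57, -0.66 to -0.48), lower in the DCBLD2-labelled library than in the vector control (-0.59, -0.70 to -0.48), and lower in the vector control than in sc (-0.37, -0.46 to -0.28). Sc was therefore the highest library by intervals that overlapped none of the others, and against it the DCBLD2-labelled library reached a log2 ratio of -0.96. YAP1 and TAZ thus differed in direction between shDCBLD2 and sc. The ratio of YAP1 to WWTR1 by FPKM was 0.536 in sc, 0.976 in shDCBLD2, 0.691 in the vector control and 0.825 in the DCBLD2-labelled library. The antisense gene WWTR1-AS1 overlaps WWTR1 and had at most 35 counts, and whether counting used the strand was not given in the sources used here.

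TEAD1, a DNA-binding partner of YAP and TAZ, had the widest range after AMOT. The gene (ENSG00000187079, chromosome 11 from 12695969 to 12966298 on the plus strand) had 2773 counts in sc, 3369 in shDCBLD2, 1789 in the vector control and 815 in the DCBLD2-labelled library, or 142, 156, 97.5 and 49.4 CPM, a span of 3.16-fold with no overlap between any intervals. The log2 ratio between the DCBLD2-labelled library and the vector control was -0.98 (-1.10 to -0.86), or 1.97-fold, just under the threshold. Against sc it was -1.52 (-1.64 to -1.41), and TEAD1 was then counted as lower. Between shDCBLD2 and sc the log2 ratio was 0.14 (0.07 to 0.21), less than the -0.54 (-0.63 to -0.45) that separated the 2 controls.

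The sum of TEAD1 to TEAD4 varied little, from 56.91 to 61.59 FPKM. TEAD1 took 22.0% of it in sc, 23.5% in shDCBLD2, 15.5% in the vector control and 7.59% in the DCBLD2-labelled library. TEAD2 took 27.6%, 25.9%, 32.4% and 37.4% in the same order, and TEAD4, the most abundant of the family in each library, between 42.6% and 46.4%. The genes closest in pattern to TEAD1 were KIF13A, a kinesin motor, FRYL, a homologue of the Drosophila gene furry, and JMJD1C, a Jumonji-domain protein, at distances of 0.0374, 0.0424 and 0.0434. KIF13A, for example, had 1091, 1359, 713 and 317 counts in the order sc, shDCBLD2, vector control and DCBLD2-labelled library.

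**Figure D2:**
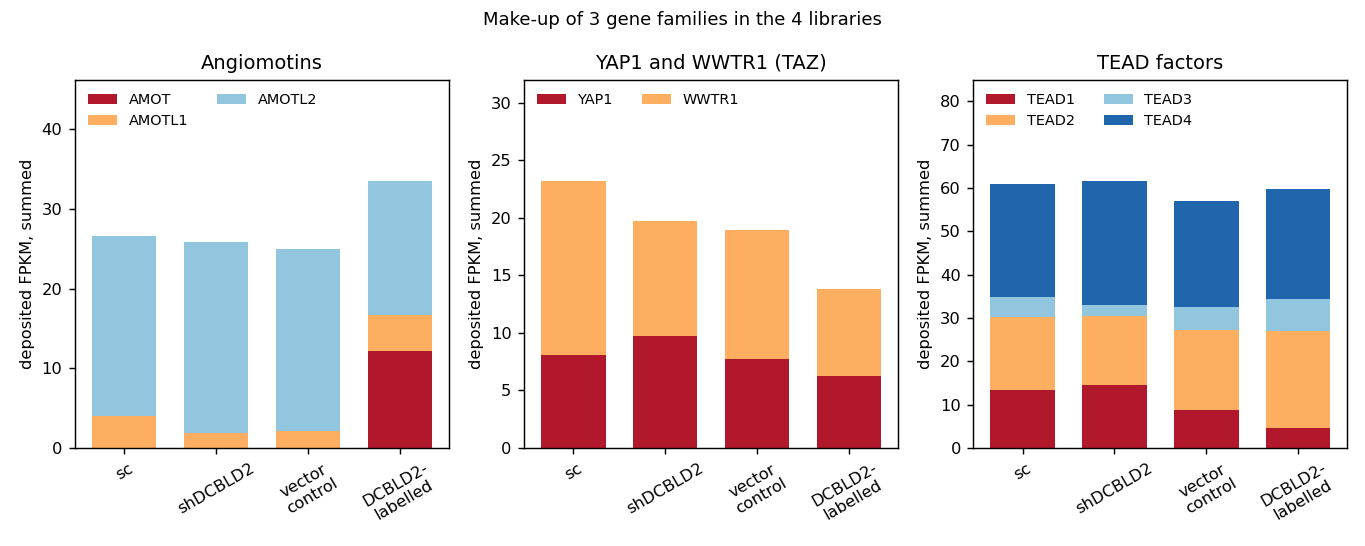
Deposited FPKM summed over the angiomotins, over YAP1 and WWTR1, and over the TEAD factors (vertical axes, from 0) in the 4 libraries, 1 bar per library with colours for genes. In the DCBLD2-labelled library AMOT makes up 36.1% of the angiomotin bar and TEAD1 7.59% of the TEAD bar, while the TEAD bars stay between 56.91 and 61.59 FPKM.

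LATS2, the kinase that phosphorylates YAP and TAZ and is itself a YAP target (ENSG00000150457, chromosome 13 from 21547171 to 21635686 on the minus strand), had 447 counts in sc, 494 in shDCBLD2, 366 in the vector control and 205 in the DCBLD2-labelled library, or 22.8, 22.9, 19.9 and 12.4 CPM. Knockdown and sc could not be separated (log2 ratio 0.00, -0.18 to 0.19). The log2 ratio between the DCBLD2-labelled library and the vector control was -0.68 (-0.94 to -0.43), or 1.60-fold. LATS2 exceeded LATS1 by FPKM in every library, between 1.52 times in the DCBLD2-labelled library and 3.13 times in the vector control.

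The 3 target genes did not share a pattern. CTGF, a secreted matricellular protein (ENSG00000118523, chromosome 6 from 132269316 to 132272513 on the minus strand), had 414 counts in sc, 583 in shDCBLD2, 464 in the vector control and 623 in the DCBLD2-labelled library, or 21.2, 27.0, 25.3 and 37.7 CPM. It was higher in the DCBLD2-labelled library than in the vector control (log2 ratio 0.58, 0.40 to 0.75) and in shDCBLD2 than in sc (0.35, 0.17 to 0.54), both under 2-fold. The vector control was also above sc, by 0.26 (0.06 to 0.45), and against the vector control the value of shDCBLD2 was 0.10 (-0.08 to 0.28).

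CYR61, a matricellular protein of the same family (ENSG00000142871, chromosome 1 from 86046444 to 86049645 on the plus strand), had 1394 counts in sc, 2939 in shDCBLD2, 1456 in the vector control and 996 in the DCBLD2-labelled library, or 71.3, 136, 79.3 and 60.3 CPM. The log2 ratio between shDCBLD2 and sc was 0.93 (0.84 to 1.03), or 1.91-fold, and it was 0.78 (0.69 to 0.87) with the vector control in place of sc. Between the DCBLD2-labelled library and the vector control it was -0.39 (-0.51 to -0.28). The shDCBLD2 library was thus the highest for CYR61 against either control, whereas CTGF was highest in the DCBLD2-labelled library. By FPKM, CYR61 exceeded CTGF by 3.21 times in sc, 4.80 times in shDCBLD2, 2.99 times in the vector control and 1.52 times in the DCBLD2-labelled library.

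ANKRD1, an ankyrin repeat protein induced by YAP in stretched cells, was the rarest of the 10 genes outside AMOT by counts. The gene (ENSG00000148677, chromosome 10 from 92671853 to 92681033 on the minus strand) had 101 counts in sc, 69 in shDCBLD2, 107 in the vector control and 74 in the DCBLD2-labelled library, or 5.16, 3.20, 5.83 and 4.48 CPM. The log2 ratio was -0.67 (-1.15 to -0.23) between shDCBLD2 and sc and -0.37 (-0.83 to 0.06) between the DCBLD2-labelled library and the vector control, where no difference was detectable at this depth. ANKRD1 and CTGF, the promoters with repeated TEAD motifs printed above, therefore lay on opposite sides of 0 between shDCBLD2 and sc.

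**Figure D3:**
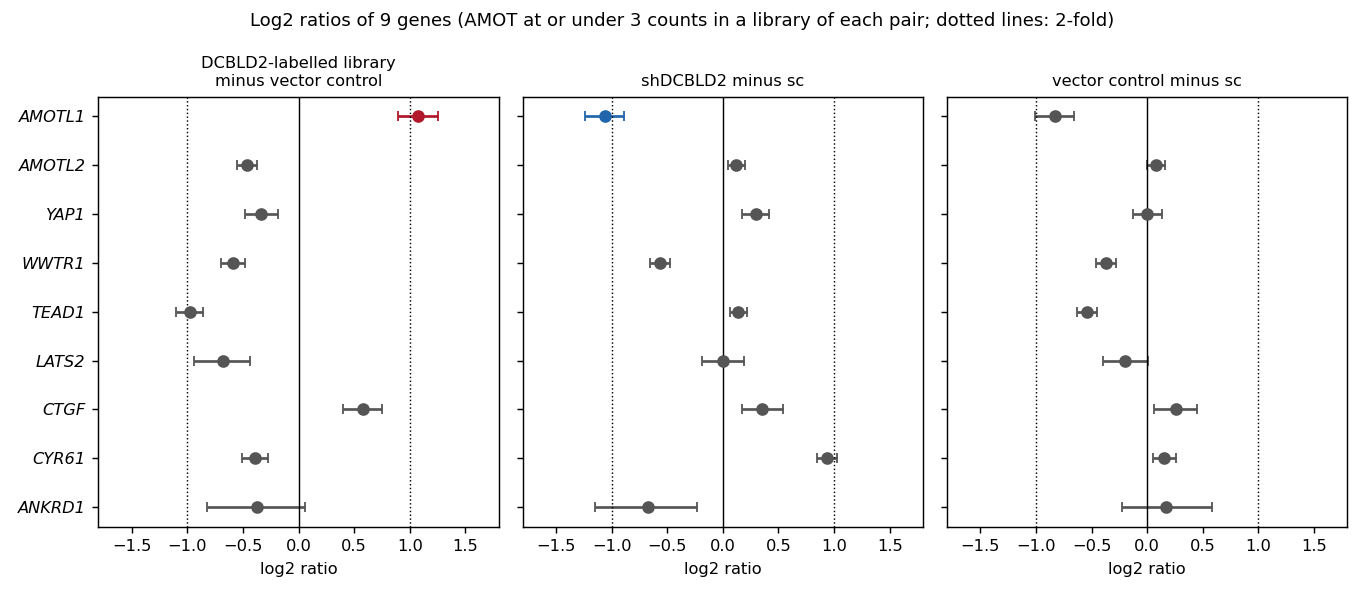
Log2 ratios (horizontal axes) of the 9 genes other than AMOT in 3 comparisons, with exact 95% counting intervals; dotted lines mark 2-fold, red and blue points the genes counted as higher and lower. AMOTL1 alone is past 2-fold, at 1.07 and -1.06, and TEAD1 (-0.98) and CYR61 (0.93) lie close to the lines.

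Across the 10 genes, CYR61 had the highest FPKM in all 4 libraries (24.44 to 55.58) and AMOTL2 the second highest (16.83 to 24.04). In the DCBLD2-labelled library the intervals of AMOTL2 (16.83 FPKM) and CTGF (16.04 FPKM) overlapped, and AMOT was the 4th of the 10. TEAD1 ranked 4th in sc (13.42 FPKM) and 8th in that library (4.54 FPKM), where its interval overlapped that of AMOTL1 (4.56 FPKM). The median log2 ratio of the 10 genes between the DCBLD2-labelled library and the vector control was -0.38, with AMOT at its lower bound, and -0.39 over the 9 genes without AMOT, beside -0.04 for all genes tested. It was 0.12 over 9 genes between shDCBLD2 and sc and 0.00 between the controls, beside 0.01 and -0.01 for all genes. Scaling by upper quartile factors shifts the median of all genes between the DCBLD2-labelled library and the vector control by 0.12 and raises the share of higher genes among those counted from 54.6% to 68.7%. With that scaling AMOTL2, WWTR1, TEAD1 and CYR61 moved to -0.34, -0.47, -0.86 and -0.27, still below 0.

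Exonic length moved with the ratios of all genes. Among the 2795 tested genes with an exonic length of 7600 bases or more, the median log2 ratio was -0.15 between the DCBLD2-labelled library and the vector control and -0.22 between the vector control and sc, beside -0.02 and 0.21 among the 2792 genes of up to 2538 bases. Between shDCBLD2 and sc both medians were -0.02. TEAD1 (10816 bases), AMOTL1 (10035), AMOT (8502) and WWTR1 (8413) belong to the longer set, and CTGF (2339), CYR61 (2455) and ANKRD1 (1979) to the shorter one. The part of length in the values of TEAD1 and WWTR1 was not tested.

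The wider pathway was read from 74 further genes in 5 lists, of which 68 passed the expression filter. Between the DCBLD2-labelled library and the vector control, 2 were higher and 6 lower, or 11.8% of the 68, the same as the 11.8% of all genes counted in either direction. Among the higher genes, DCHS1 passed the filter only through the DCBLD2-labelled library. With upper quartile factors the split was 3 higher and 3 lower, and with DESeq2 size factors 3 higher and 6 lower. Between shDCBLD2 and sc, 3 were higher and 0 lower (4.41%, beside 1.16% of all genes higher and 6.78% counted in either direction), and between the controls 1 was higher and 0 lower (1.47%, beside 4.11%).

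Of 24 kinases, adaptors and upstream regulators of the cascade, 1 was higher and 2 lower in the DCBLD2-labelled library than in the vector control. That is 12.5%, near the 11.8% of all genes counted in either direction. Their median log2 ratio was -0.26, beside -0.04 for all genes. FRMD6, a FERM-domain upstream regulator, had 259 counts in sc, 790 in shDCBLD2, 329 in the vector control and 140 in the DCBLD2-labelled library. It was the only gene of the 5 lists counted in both of these comparisons with their own controls, at 1.46 (1.26 to 1.68) between shDCBLD2 and sc and -1.07 (-1.38 to -0.79) between the DCBLD2-labelled library and the vector control. The protocadherin genes FAT4 and DCHS1, which encode a ligand and receptor pair, were rare: FAT4 had 72, 72, 68 and 29 counts and DCHS1 15, 7, 13 and 39 in the same order. DCHS1, under 1 CPM in the other libraries, passed the filter only through the DCBLD2-labelled library, where it was counted as higher. With the controls exchanged, FRMD6 stood at 1.03 (0.84 to 1.22) and, no longer counted, at -0.64 (-0.95 to -0.34). The log2 ratios of FAT4 and DCHS1 to the vector control were -1.03 (-1.76 to -0.43) and 1.60 (0.80 to 2.77). The abundant members SCRIB, WWC1, AJUBA and FAT1 lay between -0.24 and 0.25 in that comparison. FAT1 differed between the controls, at 191 CPM in sc and 106 CPM in the vector control (log2 ratio -0.84, -0.92 to -0.76).

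The 12 angiomotin partners, which are the polarity scaffolds and the ubiquitin and tankyrase enzymes that bind or turn over angiomotins, lay mostly below their level in the vector control in the DCBLD2-labelled library. Of them 11 lay below 0 against the vector control, with a median log2 ratio of -0.62, beside -0.04 for all genes. By the 2-fold rule 1 of the 12 was counted as lower, beside 5.35% of all genes. That gene was PALS1 (MPP5 in the table), a scaffold of the Crumbs polarity complex, with 651, 847, 555 and 207 counts in sc, shDCBLD2, vector control and the DCBLD2-labelled library (log2 ratio -1.26, -1.51 to -1.04). The deubiquitinase USP9X stood at -0.37, the tankyrase TNKS2 at -0.64, and the ubiquitin ligases NEDD4L and ITCH at -0.61 and -0.68. Against these, the median was -0.07 between shDCBLD2 and sc and -0.24 between the controls, where 11 of 12 also lay below 0. With sc in place of the vector control the median was -0.86 and PALS1 stood at -1.40, while the median between shDCBLD2 and the vector control was 0.25. Of the 12 genes 8 have an exonic length of 7600 bases or more. Among all tested genes of that length, 59.1% lay below 0 between the DCBLD2-labelled library and the vector control. Between the controls the share was 74.2%. The part of length in the medians of this list was not tested.

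The 10 partners of YAP and TEAD, of which 8 passed the filter, had none counted as different in the 3 comparisons. The shares of all genes counted in either direction were 11.8%, 6.78% and 4.11%. For the DCBLD2-labelled library against the vector control, the median of these partners was 0.37, beside -0.04 for all genes. The casein kinases CSNK1D and CSNK1E, which mark YAP for degradation, had log2 ratios of 0.51 (0.45 to 0.56) and 0.99 (0.91 to 1.07) in the DCBLD2-labelled library, the latter with 1910 counts for the vector control and 3404 for this library. With the controls exchanged, CSNK1E was counted as higher against sc, at 1.07 (0.99 to 1.16), and VGLL3, a TEAD cofactor, as lower, at -1.11 (-1.48 to -0.78). TEAD3 was then counted as lower between shDCBLD2 and the vector control, at -1.02 (-1.31 to -0.75), and both VGLL3 and TEAD3 are named after their values were seen. TEAD4 stood at 0.04 and TEAD2 at 0.26.

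A list of 22 further YAP target genes had a median log2 ratio of 0.44 between shDCBLD2 and sc, beside 0.01 for all genes. Of the 22 genes 16 lay above 0, beside 51.1% of all genes. In this list, 2 were counted as higher and 0 as lower, beside 1.16% and 5.62% of all genes. THBS1, the matrix protein thrombospondin, was among the former, at 84.0 CPM in sc and 170 CPM in shDCBLD2 (log2 ratio 1.02, 0.94 to 1.10). The receptor tyrosine kinase AXL lay just under the threshold, with 5735 and 12485 counts (0.98, 0.94 to 1.03). IGFBP3, an abundant target, lay on the other side, at 478 and 301 CPM (-0.67, -0.72 to -0.62), and MYOF and CRIM1 stood near 0 (0.08 and -0.07). THBS1 also differed between the controls, by -0.70, and with the vector control in place of sc its value was 1.72 (1.62 to 1.82). The median of the 22 genes was then 0.32, with 19 above 0. CYR61, at 0.93, thus lay near the upper end of the values of these targets, and CTGF, at 0.35, near their median.

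Between the DCBLD2-labelled library and the vector control the same 22 targets had a median of -0.32, with 7 above and 15 below 0. All genes had a median of -0.04, with 47.1% above 0. TGFB2, a TGF-beta ligand, was lower at 29.4 against 63.5 CPM (log2 ratio -1.11, -1.26 to -0.96), and the EGF receptor ligand AREG at 4.73 against 11.7 CPM (-1.29, -1.70 to -0.93). With sc in place of the vector control neither was counted, at -0.76 (-0.92 to -0.60) for TGFB2 and -0.71 (-1.13 to -0.31) for AREG, and the median of the 22 genes was -0.10. F3, tissue factor, was counted as higher on 31 against 15 counts (1.10, 0.27 to 2.20; 0.57, -0.20 to 1.45 against sc). The abundant targets AXL, MYOF and CRIM1 lay between -0.57 and -0.51, and THBS1 and IGFBP3 at 0.55 and 0.58.

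**Figure D4:**
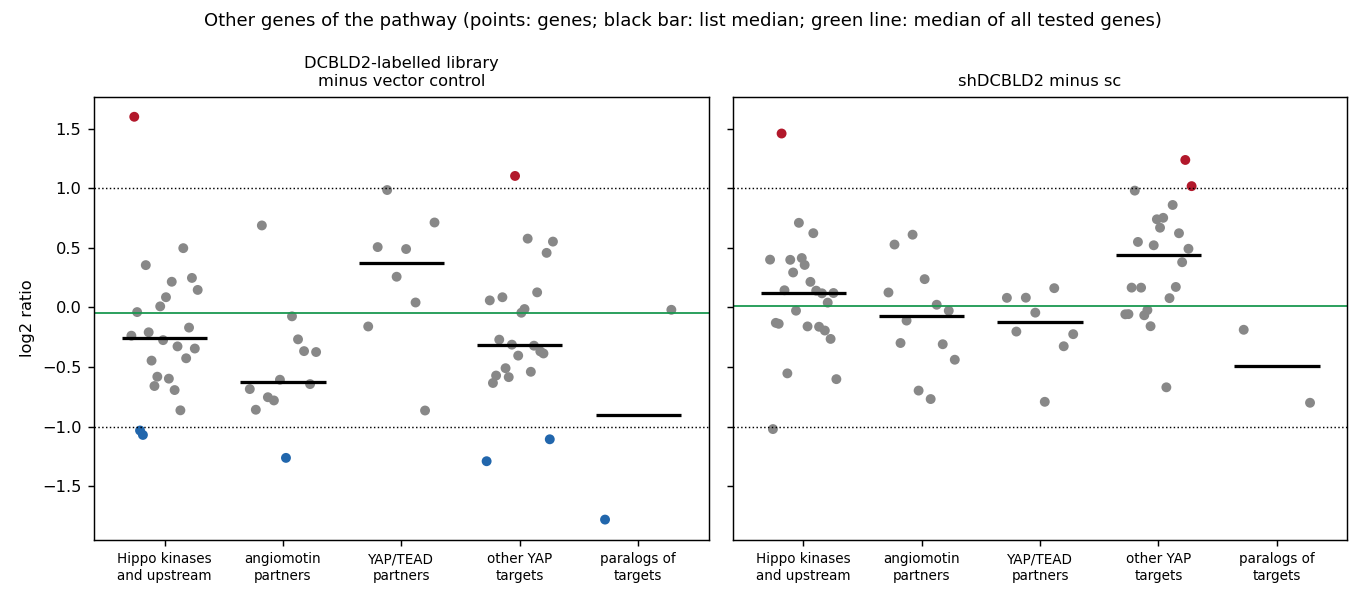
Log2 ratios (vertical axis) of the 68 further pathway genes past the filter, by list, for the DCBLD2-labelled library against the vector control (left) and shDCBLD2 against sc (right). Each point is 1 gene, red and blue if counted as higher or lower, black bars are list medians and the green line is the median of all genes; the angiomotin partners have their median at -0.62 on the left and the YAP targets theirs at 0.44 on the right.

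Of 6 paralogs of the 3 target genes, only WISP2 and ANKRD2 passed the filter. WISP2, a CCN family protein, had 431 counts in sc, 272 in shDCBLD2, 1223 in the vector control and 1085 in the DCBLD2-labelled library, and among the 3 comparisons it was counted as different in that between the controls (log2 ratio 1.59, 1.44 to 1.76). With the controls exchanged it was counted in both others, at 1.57 (1.41 to 1.74) for the DCBLD2-labelled library against sc and -2.39 (-2.60 to -2.21) for shDCBLD2 against the vector control. ANKRD2, a muscle ankyrin repeat protein related to ANKRD1, had 150, 145, 276 and 71 counts in the same order, with a log2 ratio of -1.78 (-2.20 to -1.42) between the DCBLD2-labelled library and the vector control and 0.96 (0.68 to 1.27) between the controls. Against sc the DCBLD2-labelled library gave -0.82 (-1.26 to -0.42) for ANKRD2, which was then not counted as different.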

How the data were processed

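Poly(A) RNA was sequenced from 4 libraries, 1 per condition. The authors deposited raw counts of reads for each of 57905 genes and FPKM values made from them with the exonic length per gene that they also deposited as other annotation. The submitters' processing notes list the mouse build mm9, although the identifiers are human; the aligner, the counting program and the strand setting were not given in the sources used here.

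Counts were scaled with TMM factors (0.981 to 1.02) from edgeR 4.0.16 in R 4.3.3 (DESeq2 1.42.0 size factors as an alternative). The other steps ran in Python 3.11.15 (pandas 2.3.3, numpy 2.4.6, matplotlib 3.10.9 and scipy 1.17.1). The prior count was 2, the filter a mean of 1 CPM or more (13966 genes passed), the threshold 2-fold, and the floor 3 counts. Intervals are exact Clopper-Pearson 95% intervals. The members and lists were chosen with earlier results of these data known. Genes named are the 10 members, DCBLD2, list genes counted as different, up to 4 other list genes with the highest mean CPM, the 3 closest in pattern for the 3 members of widest range (for AMOT the 2nd and 3rd), and markers; some list genes counted as different are not reported here. On simulated data with 200 genes changed 3-fold, 198, 198 and 200 were recovered in the 3 comparisons, and 25, 6 and 11 unchanged genes (of 13965, 13371 and 13603) were wrongly counted as different. The simulated counts varied by counting error alone, without variation between lines. They therefore do not give the rate of wrong counts between separately made lines. As alternatives, other scaling factors, a prior count of 0.5 or 5, a filter at 5 CPM or none, a threshold of 1.5-fold, the other control, drawn-down counts, deposited FPKM and the sum of all entries of a symbol were tried; TMM without the DCBLD2-labelled library, and the grouping by exonic length and the other control for single list genes, were added after seeing the data.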

Additional observations from a re-analysis of the deposited data

How the results depend on the processing

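No paired analysis was possible because each condition has 1 library, and for the same reason no library could be left out within a condition. Of 74 counts of genes past the threshold under the alternatives, 63 were within 1.5 times the value reported. At a 1.5-fold threshold the 10 genes gave 5 (2 higher, 3 lower), 3 (1 higher, 2 lower) and 1 (lower) in the comparisons of the DCBLD2-labelled library, of shDCBLD2 and of the controls, and the wider lists 23, 18 and 14, beside 30.6%, 16.5% and 13.7% of all genes counted in either direction at that threshold. With the vector control in place of sc, shDCBLD2 gave 0 of the 10 genes and 7 of the wider lists. With sc in place of the vector control, the DCBLD2-labelled library again gave 2 of the 10, but AMOT and TEAD1 in place of AMOT and AMOTL1. The share of all genes counted with the controls exchanged was not determined. Counts and genes given for exchanged controls therefore have no such share beside them. A mean CPM of at least 5 left 5 genes of the wider lists in that library's comparison with the vector control, all lower. Without the filter, and with counts drawn down to the smallest total, the wider lists gave 2 between the controls. No log2 ratio of the 10 genes that was counted as different changed sign under any alternative run. By deposited FPKM with a pseudocount of 0.1, AMOT gave a log2 ratio of 6.93, which depends on the pseudocount. Low counts widen the intervals of ANKRD1, DCHS1, FAT4 and F3, among others, and between separately made lines without replicates a difference of condition and of line cannot be told apart.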

Other observations

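The deposited annotation assigns the term hippo signaling to 24 genes, among them 7 of the 10 genes followed here (all but CTGF, CYR61 and ANKRD1). Of the other 17, a list taken up after values had been seen, 1 was counted as higher and 0 as lower between the DCBLD2-labelled library and the vector control, beside 6.42% and 5.35% of all genes tested. None was counted as different between shDCBLD2 and sc or between the controls, by the same rule. The genes closest in pattern to CYR61 over the 4 libraries, whose own range was also over 1 on the log2 scale, were PARP11, EOGT and CD59, and CD59, an inhibitor of complement, had 2483 counts in sc, 5132 in shDCBLD2, 2655 in the vector control and 1682 in the DCBLD2-labelled library.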
